A study of Homo sapiens with 6 samples.

Results

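Long terminal repeats (LTRs) of class I endogenous retroviruses (ERV1) were followed in the RNA of H9, an established line of human embryonic stem cells. The 91 members were chosen by name: every entry of the deposited CPM table (counts scaled to the total of each library) that carries an LTR number of an ERV1 family and does not end in -int, the ending that marks the internal, protein-coding part of a provirus. They belong to 43 families by LTR number, 23 of them with a single member, and stand among 7383 entries of that table. There were 3 groups of 2 libraries: cells kept primed with mTeSR, cells held in a naive-like state with the commercial medium RSeT, and RSeT cells that were exposed to DZNep at 10 nM together with TSA at 5 nM for 48 hours (RSeT+DT). DZNep lowers the histone mark H3K27me3 by blocking S-adenosylhomocysteine hydrolase, and TSA inhibits histone deacetylases. The labels name no genetic change in any group, and every value comes from 1 cell line. RSeT+DT differs from RSeT by both agents at once, and their parts cannot be told apart.

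ERV1 elements descend from retroviruses related to present-day gammaretroviruses. An intact provirus has an LTR at each end of its internal part, and the LTR holds the promoter, enhancer and polyadenylation signal. Recombination between the LTRs of a provirus leaves a solo LTR, the commonest form in the genome. ERV1 LTRs can act as promoters or enhancers of nearby genes, as LTRs of the HERV-E family do for APOC1 and EDNRB. A count here sums all genomic copies of a subfamily, so a solo LTR, an LTR attached to a provirus and an LTR inside an intron or exon of a gene all enter the same value. The name solo LTR therefore could not be checked in these tables, and the members are called LTR subfamilies here. The tables used here hold no consensus sequences or coordinates of repeats, and no lengths, so levels are not compared between subfamilies.

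Counts assigned to all repeats ranged from 11520770 to 38312112 per library, with RSeT replicate 1 the deepest. The tables list repeats and not genes, so gene markers of the cell type were not checked. HERVH-int, a repeat known for high RNA levels in pluripotent cells, was at 23829 and 26519 CPM in primed cells, 73442 and 75615 in RSeT, and 118627 and 114855 in RSeT+DT. The CPM of every other entry is relative to a total that includes it. Of 7 repeats read as a check for trophoblast, all 7 were detected in every library. Their summed level was 1453 and 1532 CPM in primed cells, 1912 and 1974 in RSeT and 1743 and 1767 in RSeT+DT, with no member at 0. The 7 did not move together: LTR17 went from 166 and 171 CPM in primed cells to 452 and 455 in RSeT and 577 and 546 in RSeT+DT, LTR10A from 60.6 and 65.7 to 48.8 and 52.8 and then 41.3 and 36.3, and MER21A from 329 and 346 to 294 and 315 and then 224 and 226. LTR8, MER41B, MER50 and MER50-int had their highest levels in RSeT. Whether trophoblast-like cells had a part in the values below was not tested. In bulk RNA a change in the share of cells that carry a transcript and a change per cell cannot be told apart.

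The 91 subfamilies together took 0.477 ± 0.014% of repeat counts in primed cells, 0.513 ± 0.0026% in RSeT and 0.459 ± 0.0014% in RSeT+DT (mean ± SD, n = 2 each). Their summed CPM was 4669 and 4869.7 in the primed libraries, 5113 and 5150.4 in RSeT, and 4597 and 4577 in RSeT+DT. By CPM, the RSeT libraries were the highest and the RSeT+DT libraries the lowest, with no overlap between groups. The place of RSeT+DT below primed cells depends on scaling to library totals, and its place below RSeT depends on the scaling as well. With the TMM and interspersed scalings described below, the member median log2 fold change in RSeT+DT against primed cells was 0.05 and 0.12. Against RSeT it was -0.18 and 0.06 in that order. A single subfamily, LTR6A, held 19.2% of all member counts, and next came LTR25 with 5.14%, LTR78 with 4.84%, LTR70 with 3.67%, LTR1A2 with 3.23% and LTR78B with 2.96%. LTR6A took 18.1% and 17.6% of the member counts in the primed libraries, 17.4% and 16.2% in RSeT, but 27.4% and 25.4% in RSeT+DT. Without LTR6A the summed CPM was 3826 and 4014 in primed cells, 4222 and 4317 in RSeT, and 3339 and 3417 in RSeT+DT.

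**Figure D1:**
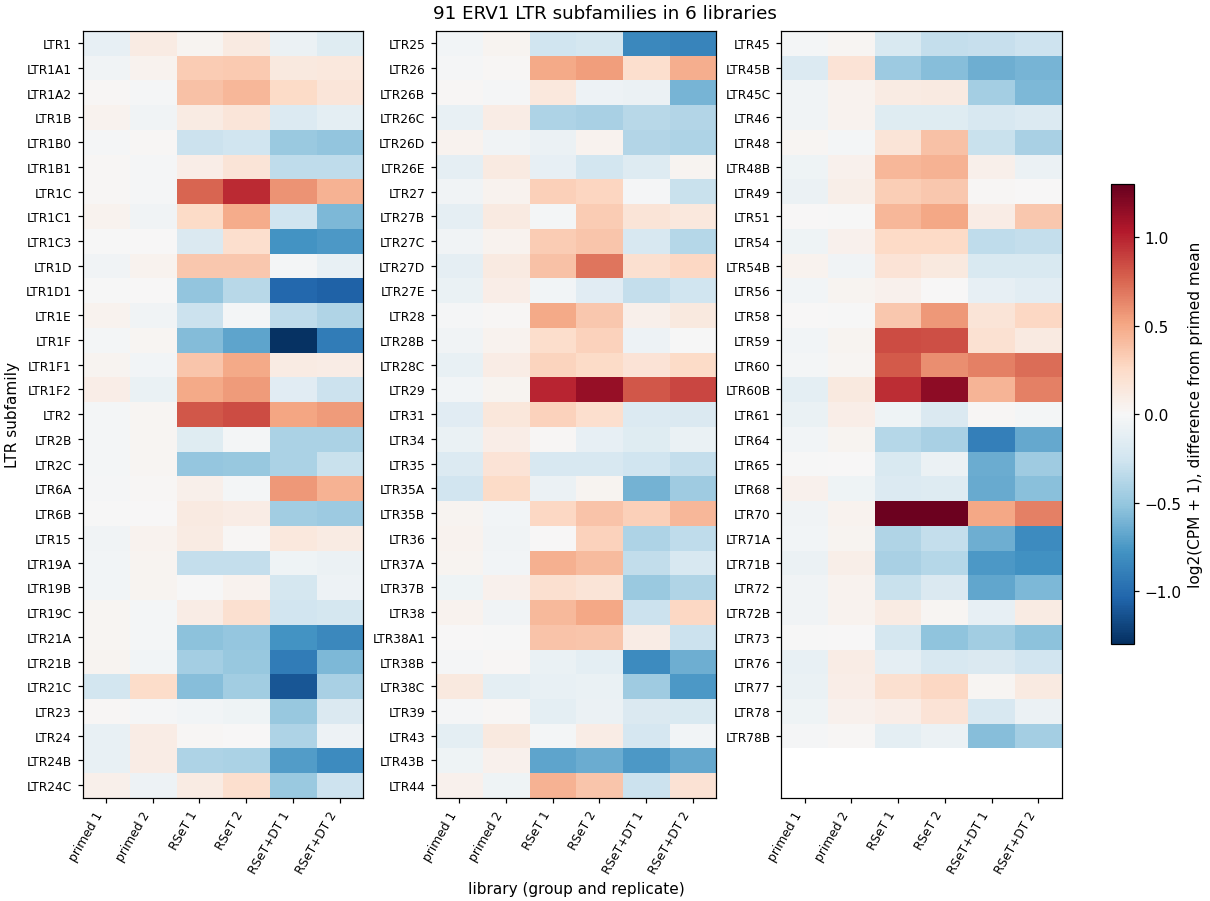
Each row is 1 of the 91 LTR subfamilies and each column 1 library. Colour gives log2(CPM + 1) minus the mean of the primed libraries, from -1.28 to 1.28 over all cells; LTR70, LTR29 and LTR60B are darkest red in the RSeT columns and LTR1F is among the darkest blue in the RSeT+DT columns.

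RSeT against primed cells asks which LTRs differ between naive-like and primed culture. Of the 91 subfamilies, 47 rose and 13 fell (edgeR's quasi-likelihood test with TMM factors, Benjamini-Hochberg adjusted p under 0.05 over 4665 tested repeats). Over all tested repeats 22.8% rose and 23.8% fell, and over the 1136 interspersed repeats among them 50.8% rose and 8.01% fell, against 51.6% and 14.3% of the members. The share that rose was thus near that of interspersed repeats in general. The median log2 fold change was 0.21 for the members, 0.16 for interspersed repeats and -0.03 for all tested repeats. By deposited CPM, 42 members were higher and 29 lower with no overlap between the groups, against 24.4% and 49.2% of all tested repeats and 42.1% and 32.3% of interspersed repeats. The largest member changes were rises, and 6 subfamilies rose at least 2-fold while none fell as much with a call.

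LTR70 had the largest rise. Its level was 95.1 and 102 CPM in primed cells, 239.8 and 240.1 in RSeT, and 139.8 and 155 in RSeT+DT. The RSeT libraries stood far above all others, with a log2 fold change of 1.42 against primed cells (SE 0.043, adjusted p = 1.65e-19 in edgeR). LTR29 went from 45.8 and 47.9 CPM in primed cells to 93.8 and 104 in RSeT (1.20, SE 0.058). The LTR60 family has 2 members, and both rose. LTR60B was at 12.6 and 15.3 CPM in primed cells and at 27.9 and 32.3 in RSeT (1.24, SE 0.11). LTR60 was at 3.50 and 3.67 against 7 and 5.99 CPM (1.01, SE 0.18). The groups did not overlap in either, which was a condition for being named among the largest changes.

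LTR1C and LTR59 also rose at least 2-fold. LTR1C went from 4.16 and 4.04 CPM to 7.6 and 8.96 (1.12, SE 0.17), and LTR59 from 5.64 and 6.02 to 11.3 and 11.2 (1.08, SE 0.14). Next was LTR2, an LTR of the HERV-E group of proviruses, from 77.9 and 80.7 CPM in primed cells to 139 and 143 in RSeT (0.97, SE 0.046). LTR27D rose by 0.71. LTR1A2, one of the subfamilies with most counts, rose by 0.54, and LTR78 by 0.26. All 8 of the largest rises passed in each of 13 fits, among them other scalings and each library left out in turn.

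The falls were smaller. LTR43B was at 11 and 12 CPM in primed cells and at 6.76 and 6.98 in RSeT (-0.61, SE 0.14). LTR1F went from 19.96 and 20.8 to 13.5 and 12.3 CPM (-0.51, SE 0.11). LTR21A, which flanks HERVFH21, went from 131 and 126 to 88.4 and 90.2 CPM (-0.40, SE 0.051). Each of these had both RSeT libraries below both primed libraries, again a condition for being named. LTR45B stood at 53.6 and 69.1 CPM in primed cells and at 43.8 and 41.1 in RSeT (-0.38, SE 0.076), LTR2C at 102 and 105 against 72.7 and 73.1 (-0.37, SE 0.050), and LTR1D1 at 61.8 and 62.0 against 43.2 and 48.1 (-0.32, SE 0.066). The primed libraries of LTR45B were the farthest apart of these. LTR21B (-0.40) and LTR26C (-0.30) completed the 8 largest falls. LTR21B did not pass without any 1 of the 4 primed or RSeT libraries or in DESeq2 (-0.37), and LTR26C not in DESeq2 (-0.27) or without RSeT replicate 1 (-0.31), RSeT replicate 2 (-0.27) or primed replicate 2 (-0.22). LTR25, with the second largest summed count, fell by 0.11 on the log2 scale, and that call was lost without any 1 of the primed or RSeT libraries.

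**Figure D2:**
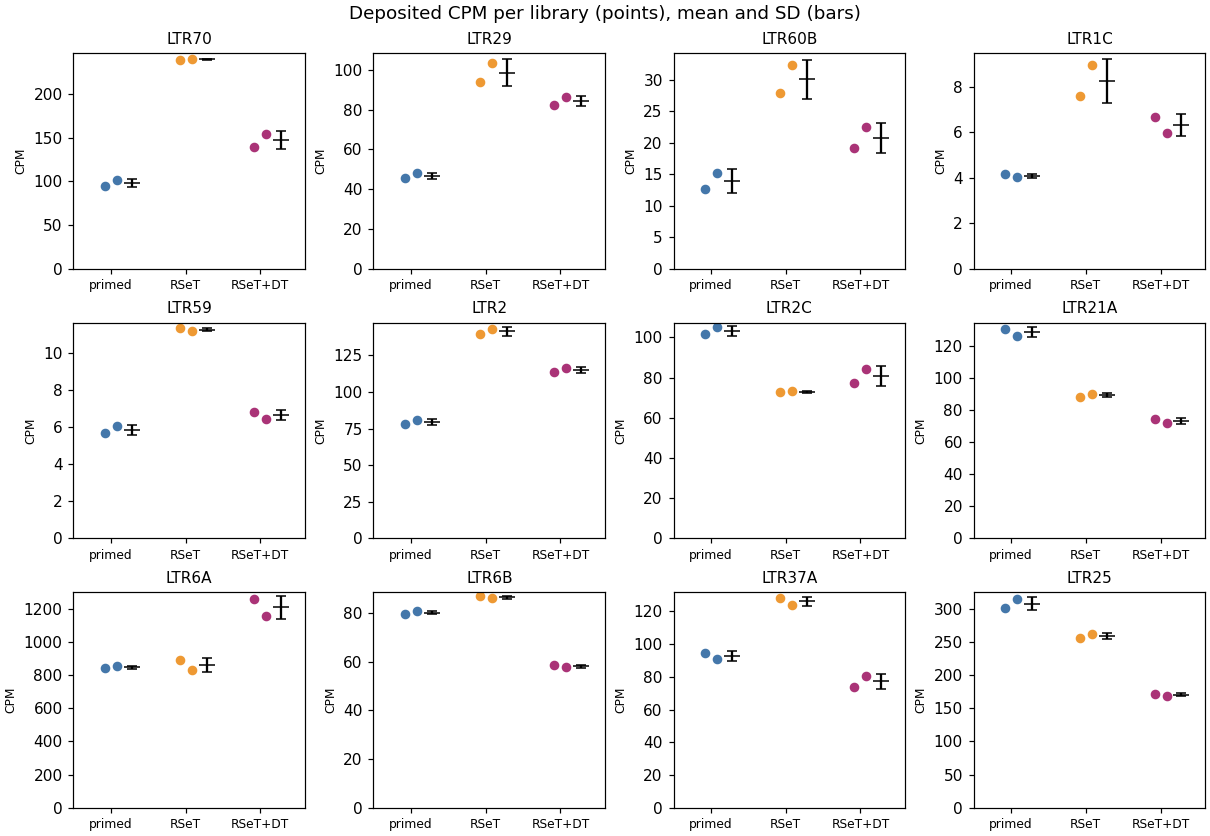
Deposited CPM (y axes, from 0) of 12 LTR subfamilies in primed, RSeT and RSeT+DT cells. Points are libraries, and bars the mean with SD (n = 2); LTR70, LTR29, LTR60B, LTR1C, LTR59 and LTR2 are highest in RSeT, LTR6A in RSeT+DT, and LTR25 and LTR21A in primed cells.

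Of the 20 families with more than 1 member, 6 had members that rose and others that fell, and in another 6 (LTR6, LTR28, LTR37, LTR48, LTR54 and LTR60) every member was called higher with TMM. The LTR1 family, the largest with 15 members, had 10 rises and 2 falls with TMM, with LTR1C (1.12) and LTR1F (-0.51) at its ends. Over interspersed repeats 50.8% rose and 8.01% fell. Under the interspersed scaling described below the family had 6 rises and 3 falls, and with library totals 6 and 2. Within a library, the ratio of LTR1C to LTR1F counts was 0.208 and 0.194 in primed cells, 0.562 and 0.730 in RSeT, and 0.853 and 0.575 in RSeT+DT. This pair was picked by its fold changes in this same comparison, so its ratio is a description only. LTR28 (3 of 3), LTR48, LTR54 and LTR37 (2 of 2 each) had rises in all members, while LTR71 and LTR43 had 1 fall among 2 members and LTR21 had 2 falls among 3. The LTR2 family split: LTR2 rose, LTR2C fell and LTR2B, at 55.5 and 57.6 against 50.7 and 55.5 CPM, did not pass.

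A scaling of interspersed repeats alone, without simple repeats, satellites, small RNA and ribosomal RNA, moved the fold changes of this comparison by -0.17 in the median. It gave 33 rises and 25 falls (36.3% and 27.5% of the members, beside 29.3% and 27.5% of interspersed repeats). Library totals without TMM moved the fold changes by -0.13 and gave 33 rises and 16 falls (36.3% and 17.6%, beside 29.1% and 16.8% of interspersed repeats). The 33 rises called under TMM, RLE factors, library totals and interspersed scaling alike include all 8 of the largest, and the 12 falls called under all 4 include 7 of the 8 largest; LTR21B was not called with RLE factors (-0.37). LTR78B was not called with TMM (0.03) but was called lower under interspersed scaling (-0.14). LTR6A, called higher with TMM (0.15), overlapped between the groups in CPM and was not called with library totals (0.02), under interspersed scaling (-0.01), without RSeT replicate 1 (0.10) or without primed replicate 2 (0.14).

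The comparison of RSeT+DT with RSeT reads the difference that goes with joint exposure to DZNep and TSA. Whether replicates were separate cultures is not in the labels, so a difference between cultures cannot be told apart from an effect of the agents. With TMM, 5 of the 91 LTR subfamilies rose and 33 fell. Over all tested repeats 25% rose and 17.4% fell, and over interspersed repeats 5.55% rose and 54.7% fell, against 5.49% and 36.3% of the members. By deposited CPM, 6 members were higher and 74 lower with no overlap between the groups, against 28.9% and 41.9% of all tested repeats and 4.67% and 85.9% of interspersed repeats. How many members were called in each direction depended on the scaling. Of the 33 falls with TMM, 12 kept the call under interspersed scaling, 15 kept the sign without the call and 6 turned sign, while all 33 kept the call with library totals. Interspersed scaling moved fold changes by 0.24 in the median and gave 25 rises and 12 falls (27.5% and 13.2%, beside 24.5% and 17.9% of interspersed repeats). Library totals moved fold changes by -0.15 and gave 2 rises and 55 falls (2.2% and 60.4%, beside 2.2% and 73.1% of interspersed repeats). The median of the members was -0.18 with TMM, 0.06 with interspersed scaling and -0.33 with library totals, and over interspersed repeats -0.22, 0.02 and -0.38. Of all members, 2 rose and 12 fell under all 4 scalings, and the same 2 and 12 did so in all 13 fits.

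The 2 rises were LTR6A and LTR19A. LTR6A, which flanks HERV-S71 proviruses, was at 843 and 855 CPM in primed cells, 891 and 833 in RSeT, and 1258 and 1161 in RSeT+DT. Primed and RSeT libraries overlapped and the RSeT+DT libraries stood above both, with a log2 fold change against RSeT of 0.64 (SE 0.051, adjusted p = 2.75e-10 in edgeR; 0.88 under interspersed scaling and 0.49 with library totals). LTR19A was at 58.3 and 61.3 CPM in primed cells, 47.8 and 47.9 in RSeT, and 57.6 and 56.7 in RSeT+DT. It was thus lowest in RSeT, and rose by 0.41 (SE 0.062) in RSeT+DT. LTR2C (0.30), LTR61 (0.26) and LTR15 (0.21) were the other rises with TMM. None of these 3 passed with library totals, at 0.15, 0.11 and 0.06, while all passed under interspersed scaling. LTR61 and LTR15 also did not pass without RSeT+DT replicate 1 (0.22 and 0.18), without RSeT replicate 2 (0.21 and 0.17) or in DESeq2 (0.23 and 0.18).

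The 12 subfamilies that fell under all scalings were LTR1D1, LTR1F2, LTR6B, LTR25, LTR27C, LTR37A, LTR37B, LTR45C, LTR48, LTR54, LTR59 and LTR70. LTR70 dropped from 239.8 and 240.1 CPM to 139.8 and 155 (-0.55, SE 0.042). LTR37A was at 128 and 124 CPM in RSeT and at 74.0 and 80.3 in RSeT+DT (-0.56, SE 0.053), and LTR37B fell by 0.48 on the log2 scale. LTR25 was at 301 and 315 CPM in primed cells, 256 and 263 in RSeT, and 172 and 169 in RSeT+DT (-0.45, SE 0.038). For LTR25 the 3 groups were fully apart, with RSeT+DT lowest. LTR1F2 went from 22.0 and 22.9 CPM in RSeT to 13.8 and 12.4 (-0.62, SE 0.12), and LTR59 from 11.3 and 11.2 to 6.81 and 6.42 (-0.61, SE 0.15). LTR1D1 went from 43.2 and 48.1 to 30.1 and 29.4 CPM (-0.45, SE 0.076). The falls of LTR27C (-0.50), LTR45C (-0.47), LTR48 (-0.47) and LTR54 (-0.44) were of like size.

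Of the 8 largest falls with TMM, LTR1C1 (-0.86, SE 0.26), LTR1C3 (-0.76, SE 0.21) and LTR38B (-0.53, SE 0.13) did not pass under interspersed scaling, at -0.61, -0.51 and -0.30. LTR1C1 has a total of 345 counts over the 6 libraries, and it and LTR1C3 also did not pass without RSeT replicate 2 (-0.74 and -0.56), nor LTR1C1 without RSeT+DT replicate 2 (-0.61). LTR78 was called lower with TMM (-0.12) and higher with interspersed scaling (0.12), the one member with opposite calls under these 2 scalings. Set against library totals as well, 5 members had opposite calls under some pair of the 3 scalings: LTR78, LTR1A1, LTR1A2, LTR29 and LTR56. LTR1A2, not called with TMM (-0.04), was called higher under interspersed scaling (0.20) and lower by library totals (-0.20). LTR29, at 93.8 and 104 CPM in RSeT and 82.4 and 86.2 in RSeT+DT, did not pass with TMM (-0.07), was called lower by library totals (-0.22) and higher under interspersed scaling (0.18).

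**Figure D3:**
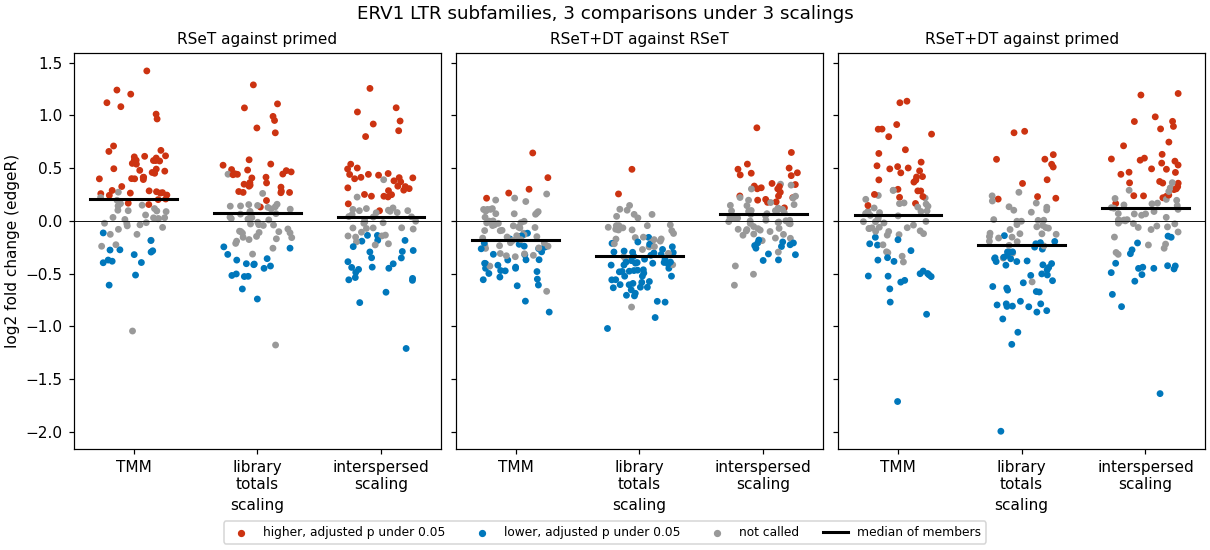
Log2 fold change from edgeR (y axis) of the 91 LTR subfamilies in 3 comparisons, each under TMM, library totals and interspersed scaling (x axis). Points are subfamilies, coloured by call, and black lines are medians; in RSeT+DT against RSeT the median goes from -0.18 to -0.33 and 0.06, while LTR6A is the topmost point under all 3.

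Ratios of counts within a library do not depend on the scaling. These pairs were chosen after their values were seen, and 2 libraries a group allow no smaller p than 0.333 in an exact permutation test (two-sided), so they are given as a description. The LTR6 family has 2 members, which moved apart in RSeT+DT. The ratio of LTR6A to LTR6B was 10.6 and 10.6 in the primed libraries, 10.2 and 9.68 in RSeT, and 21.5 and 20.1 in RSeT+DT. LTR6B itself was at 79.7 and 80.7 CPM in primed cells, 87.0 and 86.1 in RSeT, and 58.6 and 57.6 in RSeT+DT (-0.42, SE 0.056 against RSeT). HERVS71-int, the internal part that goes with both LTRs, was at 313 and 329 CPM in primed cells, 313 and 324 in RSeT, and 183 and 194 in RSeT+DT (-0.60, SE 0.035). Its ratio to LTR6A changed likewise: LTR6A had 2.7 and 2.6 counts per count of HERVS71-int in primed cells, 2.84 and 2.58 in RSeT, and 6.87 and 5.99 in RSeT+DT. LTR6B per HERVS71-int was 0.255 and 0.245, 0.277 and 0.266, and 0.320 and 0.297 in the same order. The rise of LTR6A in RSeT+DT was thus not shared by LTR6B or by the internal part, which both fell under all 4 scalings.

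By family, RSeT+DT against RSeT gave falls alone in 18 of the 43 families, rises alone in 2, both directions in 3 and no call in 20 with TMM. In the LTR1 family 7 of 15 members (46.7%) fell and none rose with TMM, beside 54.7% and 5.55% of interspersed repeats. Interspersed scaling gave 3 rises (LTR1, LTR1A1 and LTR1A2) and 2 falls (LTR1D1 and LTR1F2), beside 24.5% and 17.9% of interspersed repeats. The summed level of the LTR1 family was 438 and 441 CPM in primed cells, 486 and 512 in RSeT, and 405 and 391 in RSeT+DT. By CPM, RSeT libraries were thus the highest and RSeT+DT libraries the lowest in that family. The same order of CPM, with no overlap, was seen for the summed levels of LTR37, LTR48 and LTR54, which have 2 members each. It was also seen for LTR27 with 5 members and LTR38 with 4. With TMM, 1 member of LTR27 and 2 of LTR38 were called lower in RSeT+DT than in RSeT. The place of RSeT+DT below primed cells was not general with TMM. Against primed cells, 5 members of the LTR1 family were then called higher and 3 lower, beside 24.4% and 34.3% of interspersed repeats. LTR48B was called higher (0.28) and LTR37B lower (-0.16). LTR37A (0.02), LTR48 (-0.07), LTR54 (-0.04) and LTR54B (0.08) were not called. LTR37 summed to 172 and 175 CPM in primed cells, 221 and 214 in RSeT, and 132 and 141 in RSeT+DT. LTR48 summed to 155 and 158, 194 and 209.6, and 146 and 132 CPM, and LTR54 to 107 and 108, 126 and 124, and 88.4 and 89.3 CPM. In LTR37, LTR48 and LTR54 both members were called lower in RSeT+DT than in RSeT with TMM. The call held in all 13 fits for LTR37A, LTR37B and the subfamilies named LTR48 and LTR54, and not for the other member of the LTR48 or LTR54 family. LTR28, with 3 members, had no call in this comparison and summed to 94.7 and 105 CPM in primed cells, 124 and 122 in RSeT, and 107 and 113 in RSeT+DT. LTR21, also with 3 members, had no call in this comparison with TMM either. It summed to 140.5 and 136 CPM in primed cells, 95 and 96.6 in RSeT, and 78.7 and 77.7 in RSeT+DT. By CPM its primed libraries were the highest and no groups overlapped.

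In the LTR2 family the primed cells stood apart. LTR2 had 0.767 and 0.768 counts per count of LTR2C in primed cells, 1.92 and 1.96 in RSeT, and 1.47 and 1.38 in RSeT+DT. Against LTR2B the ratio was 1.40 and 1.40 in primed cells, 2.75 and 2.58 in RSeT, and 2.67 and 2.76 in RSeT+DT, so that the RSeT and RSeT+DT libraries overlapped. In the LTR19 family, LTR19A had 2.34 and 2.56 counts per count of LTR19C in primed cells, 1.83 and 1.69 in RSeT, and 2.82 and 2.73 in RSeT+DT.

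**Figure D4:**
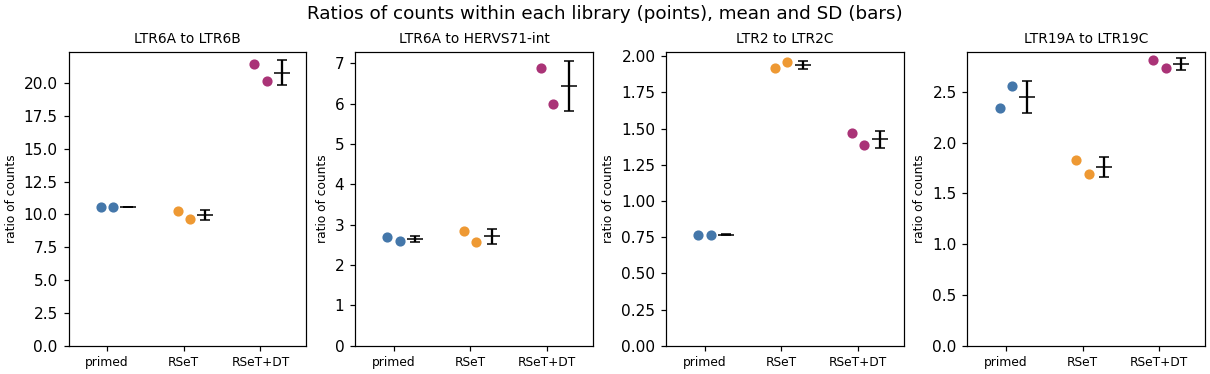
Ratio of counts of 2 entries within each library (y axes, from 0) in primed, RSeT and RSeT+DT cells, for 4 pairs. Points are libraries, and bars the mean with SD (n = 2); LTR6A to LTR6B is 10.6 ± 0.015, 9.96 ± 0.40 and 20.8 ± 0.96, and LTR2 to LTR2C is lowest in primed cells.

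RSeT+DT against primed cells shares its libraries with the other comparisons and is given beside them. With TMM 29 of the 91 LTR subfamilies were higher and 21 lower, against 25.1% and 20.6% of all tested repeats and 24.4% and 34.3% of interspersed repeats, or 31.9% and 23.1% of the members. By deposited CPM, 20 members were higher and 55 lower with no overlap, against 20.2% and 54.5% of all tested repeats and 14.5% and 71% of interspersed repeats. Interspersed scaling gave 34 and 18 (37.4% and 19.8%, beside 33.5% and 28.7% of interspersed repeats). Library totals, which moved fold changes by -0.29 in the median, gave 12 and 45 (13.2% and 49.5%, beside 10.5% and 61.1% of interspersed repeats). The member median was 0.05 with TMM, 0.12 with interspersed scaling and -0.23 with library totals. Called higher in all 13 fits were 12 subfamilies, among them LTR29 (1.13, SE 0.063), LTR60 (1.12), LTR1C (0.91), LTR60B (0.87), LTR70 (0.87), LTR2 (0.82), LTR6A (0.80, SE 0.052) and LTR35B (0.67), which are the 8 largest rises. LTR35B was at 15.3 and 14.5 CPM in primed cells, 18.1 and 19.6 in RSeT, and 18.8 and 20.4 in RSeT+DT.

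The 8 largest falls against primed cells were LTR1F (-0.89, SE 0.14), LTR1D1 (-0.77, SE 0.077), LTR1C3 (-0.64), LTR21B (-0.58), LTR25 (-0.56, SE 0.038), LTR21A (-0.53), LTR71B (-0.52) and LTR64 (-0.52). LTR1C3 did not pass in DESeq2 (-0.66) or without RSeT+DT replicate 1 (-0.64), RSeT+DT replicate 2 (-0.61) or primed replicate 1 (-0.61). LTR21B did not pass in DESeq2 (-0.59) or without RSeT+DT replicate 1 (-0.40) or primed replicate 1 (-0.50). The other 6 passed in all 13 fits. LTR21A was at 131 and 126 CPM in primed cells, 88.4 and 90.2 in RSeT, and 74.6 and 71.6 in RSeT+DT, and LTR1D1 at 61.8 and 62.0, 43.2 and 48.1, and 30.1 and 29.4. By CPM, both had the 3 groups fully apart, in the order primed, RSeT, RSeT+DT. For LTR21A the step from RSeT to RSeT+DT was called with library totals (-0.29) but not with TMM (-0.13). LTR21C, with a total of 70 counts over the 6 libraries, is the least counted member, and its values rest on few reads.

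Internal parts of ERV1 proviruses that share a number or a known pairing with a member family were read from a list of 19 entries, all tested. In RSeT against primed cells 9 were higher and 6 lower (47.4% and 31.6%, beside 50.8% and 8.01% of interspersed repeats). Under interspersed scaling 7 were higher and 8 lower (36.8% and 42.1%, beside 29.3% and 27.5% of interspersed repeats). Those of the LTR2 family differed among themselves. HERVE_a-int went from 31.9 and 30.2 CPM in primed cells to 60.6 and 62.4 in RSeT (1.11, SE 0.067), and Harlequin-int from 156 and 169.5 to 252 and 262 (0.79, SE 0.038). HERVE-int went the other way, from 217 and 220.1 to 176 and 177 CPM (-0.18, SE 0.039). LTR2 per Harlequin-int was 0.5 and 0.476 in primed cells, 0.554 and 0.547 in RSeT, and 0.555 and 0.552 in RSeT+DT. The primed libraries lay below the other 4, which overlapped between RSeT and RSeT+DT.

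Among the other internal parts, LTR49-int rose by 0.99 in RSeT against primed cells, HERV35I-int by 0.89, LTR39-int by 0.75 and LTR23-int by 0.69. HERVFH19-int (-0.69), HERVP71A-int (-0.68), HERVFH21-int (-0.59), HERV1_I-int (-0.45) and LTR37-int (-0.37) fell. HERV1_I-int shares only a number with the LTR1 family. HERV1_I-int did not pass in DESeq2 (-0.40) or without RSeT replicate 1 (-0.23) or primed replicate 1 (-0.36), and HERVFH21-int not without RSeT replicate 1 (-0.30). HERVP71A-int, which goes with LTR71, was at 58.1 and 65.1 CPM in primed cells, 35.1 and 34.6 in RSeT, and 24.96 and 24.7 in RSeT+DT. In RSeT+DT against RSeT 1 internal part rose and 11 fell with TMM (5.26% and 57.9%, beside 5.55% and 54.7% of interspersed repeats). Under interspersed scaling 3 rose and 2 fell (15.8% and 10.5%, beside 24.5% and 17.9% of interspersed repeats). With library totals 0 rose and 14 fell (0% and 73.7%, beside 2.2% and 73.1% of interspersed repeats). The 2 falls that held under interspersed scaling were HERVS71-int (-0.36) and HERV35I-int (-0.27). The rise was LTR43-int, from 37.8 and 41.9 to 44.9 and 44.1 CPM (0.33, SE 0.073), which did not pass with library totals (0.17).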

How the data were processed

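RNA of 6 H9 libraries was extracted from cells in Trizol with a miRNeasy kit and made into stranded total RNA libraries, per the labels' protocols. The authors deposited raw counts per repeat name and a table of CPM; the CPM equal counts divided by the sum of the listed entries, on the CPM scale, within 0.00442 CPM. Trimmomatic 0.39, STAR 2.7.8a, featureCounts and Subread 2.14.2 with GRCh38/hg38 are named in the submitters' processing notes; for the repeat annotation, multi-mapping reads and strand, the setting is not given in the sources used here, and related subfamilies may share reads.

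Counts of all repeats were fitted with edgeR 4.0.16 in R 4.3.3 (TMM, filterByExpr with at least 10 counts and a total of 15, group as the only term, all 6 libraries, 3 residual degrees of freedom); all 91 members passed the filter. SE come from the fold change and F statistic. Whether replicates were separate cultures is not in the labels, and p-values then rest on a between-library spread that may be technical; for the members, replicates differed beyond sampling noise (chi-square per degree of freedom of 1.73, 2.90 and 2.46 for primed, RSeT and RSeT+DT). Depth limits subfamilies with few counts: 13 members have under 1000 in all. Named in each comparison were the 8 largest rises and 8 largest falls among called members with a mean count of at least 50 and no overlap in CPM, plus the 6 with the largest summed count, and others where a family is described. Members, lists and rules were chosen with earlier results of these data known. Alternatives were RLE factors, library totals, interspersed scaling, no filter, DESeq2 1.42.0, a replicate block and each library left out; limma 3.58.1 served edgeR.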

Additional observations from a re-analysis of the deposited data

How the results depend on the processing

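Scaling and single libraries both limit these results. Called falls in RSeT against primed cells went from 13 to 25 under interspersed scaling and to 7 in DESeq2. Falls over interspersed repeats went from 8.01% to 27.5% and 3.87% in that order. The member median went from 0.21 to 0.0405 under interspersed scaling and 0.0748 with library totals. In RSeT+DT against RSeT, rises went from 5 to 25 under interspersed scaling, 2 with library totals and 3 in DESeq2. Falls went from 33 to 12 and, with library totals, 55, and the median from -0.18 to 0.0619 and -0.33. Over interspersed repeats, rises went from 5.55% to 24.5%, 2.2% and 3.87% in that order. Falls over interspersed repeats went from 54.7% to 17.9% and, with library totals, 73.1%. In RSeT+DT against primed cells, library totals gave 12 rises, 45 falls (beside 10.5% and 61.1% of interspersed repeats) and a median of -0.23, and interspersed scaling a median of 0.12. Leaving out 1 library each gave 38 to 47 rises, 6 to 13 falls and medians of 0.19 to 0.23 in RSeT against primed cells (6 falls without primed replicate 2, 7 without RSeT replicate 2), 3 to 5 rises, 20 to 32 falls and medians of -0.18 to -0.14 in RSeT+DT against RSeT (3 rises without RSeT+DT replicate 1 or RSeT replicate 2, and 20 falls without the latter), and 19 to 29 rises, 13 to 19 falls and medians of 0.03 to 0.10 in RSeT+DT against primed cells (19 rises without primed replicate 1 and 13 falls without RSeT+DT replicate 1); a group left with 1 library is assumed to vary like the others. Beyond fewer samples and the shift of scale, the cause was not tested.

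Signs turned in RSeT against primed cells for LTR6A (-0.0105, interspersed scaling), LTR78B (-0.10, library totals; -0.14, interspersed scaling) and HERVS71-int (-0.0108 and -0.0454 in that order). In RSeT+DT against RSeT they turned under interspersed scaling for LTR78 (0.12), LTR1A2 (0.20), LTR29 (0.18), LTR2 (0.10), HERVE-int (0.0511), HERVE_a-int (0.0464), Harlequin-int (0.0895), LTR19-int (0.0193) and LTR25-int (0.0212), and for LTR1A2 without RSeT+DT replicate 2 (0.0352), its values ranging from -0.11 to 0.0352 over the fits that leave out 1 library. In RSeT+DT against primed cells they turned with library totals for LTR78 (-0.14), LTR19A (-0.0636), LTR61 (-0.00414) and LTR25-int (-0.0656). Of 1548 values of named entries under an alternative, 1361 kept direction and call, 166 lost the call, 2 gained it and 19 turned sign. With the replicate number as a block, 47 rises and 13 falls, 5 and 31, and 29 and 21 were called in the 3 comparisons; deviations of same-numbered libraries correlated at 0.05, -0.04 and 0.0015, so the numbers were not taken to pair the libraries.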

Other observations

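Further ratios of an LTR to its internal part within a library differed between groups; the pairs were picked after their values were seen and were not tested. LTR37A had 1.01 and 0.974 counts per count of LTR37-int in the primed libraries, 1.95 and 1.89 in RSeT, and 1.60 and 1.57 in RSeT+DT, and LTR37-int itself was at 93.4 and 93.1, 65.8 and 65.6, and 46.2 and 51.1 CPM. LTR25 had 9.12 and 10.2 counts per count of LTR25-int in primed cells, 6.63 and 6.43 in RSeT, and 5.79 and 5.37 in RSeT+DT. LTR49 went the same way, with 0.839 and 0.869 counts per count of LTR49-int in primed cells, 0.590 and 0.607 in RSeT, and 0.662 and 0.591 in RSeT+DT, where RSeT and RSeT+DT overlapped. LTR2C per HERVE-int was 0.468 and 0.477 in primed cells, 0.412 and 0.414 in RSeT, and 0.556 and 0.603 in RSeT+DT. In each of these pairs the primed libraries did not overlap with those of the other groups.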
